A study of Mus musculus with 8 samples.

Results

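Chemokine ligands are small secreted or membrane-tethered proteins that guide the movement of cells carrying matching receptors. The ligands were taken as the protein-coding genes of the deposited count table whose symbol is Ccl or Cxcl with a number, Cx3cl1 or Xcl1. This gave 33 genes of 31894 with an identifier, of which 20312 are protein coding. The symbols carry the family in their name: CXC ligands draw mainly neutrophils and lymphocytes, CC ligands draw mainly monocytes, macrophages and lymphocytes, and the CX3C ligand binds a receptor that microglia carry. In brain metastases such ligands are made by tumor cells, microglia, astrocytes and infiltrating immune cells, and many of their genes respond to NF-κB or interferon signaling.

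Breast cancer brain metastases (BCBM) of 4 FVB mice, numbered 57, 58, 67 and 70, were sorted into tumor cells with high E-cadherin (E-cad HI) and low E-cadherin (E-cad LO), and bulk mRNA was sequenced from each population. Each mouse gave 1 library per population, which makes 8 libraries, 4 per group. In this model, tumor pieces were passed serially through the brain, organoids were derived from the resulting tumors, and dissociated organoid cells were injected into the brain to grow the BCBM. The tumor cells carry the PyMT oncogene under the mammary MMTV promoter together with an E-cadherin-mCFP fusion, mCFP being a fluorescent protein. The labels give the genotype as wild type and state no age and no treatment, and both groups share the strain, the tumor and the host tissue. The supplementary figure of the gates takes live single cells with Dendra2, a nuclear label of the tumor cells, and little tdTomato, a red label of host cells, as tumor cells and then splits them by mCFP. The labels do not state whether the sequenced mice carried tdTomato. The study proposes that other cells may make up at most a small share of the sorted fraction, and this purity was checked on the mCFP-positive population alone. The comparison asks which transcripts differ between tumor cells that keep and that lose E-cadherin in the brain.

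Values are given throughout in the order of mice 57, 58, 67 and 70. Total counts over genes with an identifier were 14922074, 13006189, 13437544 and 11876177 for E-cad HI cells. For E-cad LO cells they were 11325146, 9102781, 14313787 and 15769200. A floor of 3 counts corresponds to between 0.190 and 0.330 CPM (counts scaled to a common library total) and covers counting error only. Levels are given as CPM after TMM scaling. Cdh1, the gene of E-cadherin, was looked at because it names the groups and was picked after its values were seen. It had 113, 132, 93.2 and 107 CPM in E-cad HI cells and 71.4, 181, 84.2 and 59.0 CPM in E-cad LO cells. The transcript was lower with E-cad LO status in mice 57, 67 and 70 and higher in mouse 58, so mouse 58 went against the label at the level of RNA. The gate was set on the fused protein, and the log2 fold change of the transcript was -0.17 ± 0.33 (SE, n = 4 per group), with an edgeR adjusted p of 0.809 (0.235 to 0.998 over the alternative fits).

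Chemokine ligands took up a larger share of the transcriptome in E-cad LO cells of every mouse. Their summed counts made up 0.0294%, 0.0264%, 0.0263% and 0.0294% of all counts in E-cad HI cells. In E-cad LO cells they made up 0.0979%, 0.0477%, 0.0672% and 0.0455%. All 4 E-cad LO libraries lay above all 4 E-cad HI libraries, and the share was highest in E-cad LO cells of mouse 57. Because these are bulk samples, fewer cells of a type and less RNA per cell cannot be told apart. Of the 33 ligands, 21 passed the filter on low counts, which asked for 10 counts at the median depth (0.756 CPM) in at least 4 libraries, and 12 did not. Of these 21, 9 passed that level in all 8 libraries, against 11104 of all 13598 tested genes. Another 5 (Cxcl10, Cxcl12, Cxcl14, Ccl4 and Ccl7) passed it in all E-cad LO but not all E-cad HI libraries, against 804 of all tested genes. That count over all tested genes also applies to the other lists below. These 5 ligands could enter the test through the group in which they were higher. Ccl3, Ccl6 and Ccl8 passed it in 3 E-cad LO libraries and 1 E-cad HI library, so they too entered mainly through E-cad LO cells. Cxcl9 passed it in 3 E-cad LO and 2 E-cad HI libraries. Cxcl17 passed it in all E-cad HI but not all E-cad LO libraries.

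Within mice, 17 of the 21 tested ligands had higher levels in E-cad LO cells of all 4 mice, where 16.8% of all 13598 tested genes were. Cxcl10, Cxcl12, Cxcl14, Ccl3, Ccl4, Ccl6, Ccl7 and Ccl8 are among these 17. They could enter the test wholly or mainly through E-cad LO cells, so their direction is bound up with being tested. None of the 21 was lower in all 4 mice, compared with 14.2% of tested genes. Among these 17, the ratio was close to even for Ccl12 in mouse 57 (log2 ratio 0.03, from 4 counts in each library), for Ccl3 in mouse 58 (0.00, from 3 and 2 counts) and for Cxcl12 in mouse 67 (0.09). Ccl3 is at or under the floor in both libraries of mouse 58 and has no usable direction there. Counting only genes with a library above the floor in each mouse, a rule added after seeing the data, 16 of the 21 were higher in all 4 mice, against 16% of tested genes. Ccl4, Ccl6, Ccl7 and Ccl8 were at or under the floor in 1 or 2 E-cad HI libraries, so the sizes of their ratios in those mice are inexact. Counting only genes above the floor in every library, also added after seeing the data, 12 of the 21 were higher in all 4 mice, against 13% of tested genes. Counting all 33 ligands without the filter, 18 were higher in all 4 mice, against 11.9% of the 20312 protein-coding genes, and 1, Cxcl5, was lower in all 4, against 9.56%. All 4 E-cad LO libraries lay above all 4 E-cad HI libraries for 6 tested ligands, Cxcl1, Cxcl10, Cxcl16, Ccl5, Ccl20 and Ccl25, against 3.9% of tested genes. Without the filter the same held for 7 of 33 ligands, Cxcl2 being the addition, against 2.73% of protein-coding genes.

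The median log2 fold change of the tested ligands was 1.84, and that of all tested genes was 0.06. With at least 10 counts required in every library, which left 9 ligands, the medians were 1.66 for ligands and 0.05 for all tested genes. The ligands' median ratio within a mouse was 1.57, 0.89, 1.70 and 0.91, and that of all tested genes was 0.02, 0.00, 0.02 and 0.07. The ligands' medians were larger in mice 57 and 67 than in mice 58 and 70. Without mouse 57, 17 tested ligands were higher in all remaining mice and the median log2 fold change was 1.56. Without mouse 58, whose Cdh1 went against the label, these values were 18 and 1.64, without mouse 67 they were 17 and 1.55, and without mouse 70 they were 17 and 2.27.

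**Figure D1:**
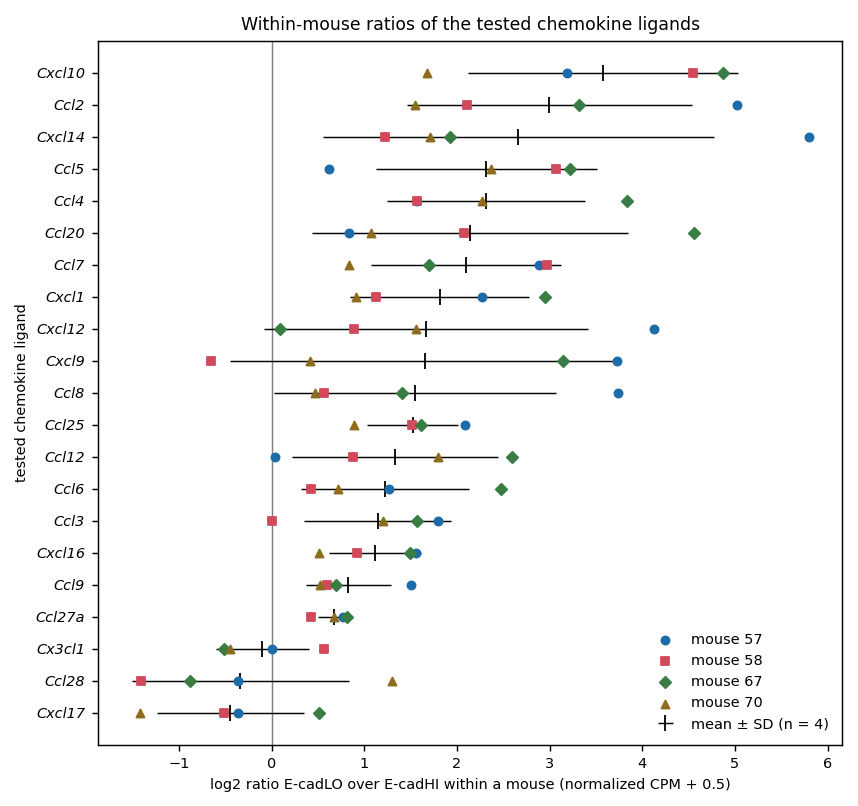
Log2 ratio of E-cad LO over E-cad HI cells within each mouse (x axis, normalized CPM plus 0.5) for the 21 tested ligands (y axis), with a symbol per mouse and the mean ± SD as a bar. For 17 of them all 4 symbols lie above 0, with Ccl12, Ccl3 and Cxcl12 having a symbol at or near 0.

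Whether these differences pass a test depended on the tool. In the quasi-likelihood test of edgeR, adjusted over all tested genes by the Benjamini-Hochberg method, 0 of 21 ligands passed an adjusted p of 0.05, and so did 0% of all genes. At an unadjusted p under 0.05, 11 of the 21 were higher in E-cad LO cells, against 8.16% of all genes, and 0 were lower, against 5.81%. Given a replicate block for the mouse, edgeR called 0.728% of all genes higher, and 0 of the 21 ligands, while 14 ligands had an unadjusted p under 0.05, against 12.3% of all genes. With the block and a mouse left out, 8 ligands were called without mouse 57 (Cxcl1, Cxcl10, Cxcl14, Cxcl16, Ccl2, Ccl4, Ccl5 and Ccl12), against 3.06% of genes, and 0 without mouse 58, 67 or 70, against 0.462%, 0% and 0.0149%. DESeq2 called 6 of 20 ligands higher (Cxcl1, Cxcl10, Cxcl16, Ccl2, Ccl4 and Ccl25), against 2.31% of genes, and 0 lower, against 0.473%. With the replicate block DESeq2 called 10 of 21 higher, adding Ccl5, Ccl7, Ccl12 and Ccl20, against 7.72% of genes, and 0 lower, against 1.69%. These shares over all genes also apply to the other lists below. Of the ligands called in some fit here, Cxcl10, Cxcl14, Ccl4 and Ccl7 could enter the test through E-cad LO cells alone. In a self-test on simulated counts, 200 of the 13598 genes were given a change, and no difference between mice was put in. Libraries of the same mouse resemble each other in the real data, so the shares of the self-test need not hold for them. Of DESeq2's calls there, 19.8% to 22.6% were false without the block and 23.9% to 37.7% with it. For edgeR the false share was 3.60% to 7.10% without the block and 1.01% to 11.6% with it. DESeq2 recovered 68.5% to 85% of the changed genes without the block and 71% to 84.5% with it. For edgeR these values were 53.5% to 78.5% and 49% to 76%. In the accounts of single ligands, adjusted p values are edgeR's without the block, followed by their range over the alternative fits, which include DESeq2 and the fits without a mouse.

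The CXC ligands that bind Cxcr2 and draw neutrophils are Cxcl1, Cxcl2, Cxcl3, Cxcl5 and Cxcl15. Cxcl1, the best expressed of them per kilobase of exon, had 20.5, 14.0, 15.5 and 16.8 CPM in E-cad HI cells and 100.4, 31.1, 123 and 31.9 CPM in E-cad LO cells. The E-cad HI libraries were close together, every E-cad LO library was above them, and mice 57 and 67 stood highest. Its log2 fold change was 2.1 ± 0.46, higher in 4 of 4 mice (edgeR adjusted p = 0.251, 2.16e-05 to 0.68). Cxcl2, a close relative next to it on the chromosome, had 4, 4, 2 and 5 counts in E-cad HI cells and 54, 10, 22 and 11 counts in E-cad LO cells. Its groups did not overlap either, but it did not reach the filter and was not tested. Cxcl5, in contrast, had 25, 9, 4 and 12 counts in E-cad HI cells and 16, 1, 3 and 0 counts in E-cad LO cells, and its groups overlapped. Cxcl3 had 1 count in 1 library, and Cxcl15 had counts in E-cad LO libraries from mice 57 and 70 alone, 2 and 5.

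Cxcl9 and Cxcl10 are induced by interferons and bind Cxcr3 on activated T and NK cells. Cxcl10 had 6.74, 0.766, 0.667 and 5.95 CPM in E-cad HI cells and 65.5, 29.1, 33.8 and 20.1 CPM in E-cad LO cells. The lowest E-cad LO library, that of mouse 70, was above the highest E-cad HI library, that of mouse 57. The log2 fold change was 3.39 ± 0.78, higher in 4 of 4 mice (edgeR adjusted p = 0.251, 4.34e-10 to 0.68). Exons of Cxcl10 overlap those of Art3 on the opposite strand, and Art3 had 1.11, 1.92, 0.222 and 2.63 CPM in E-cad HI cells and 11.8, 0.232, 1.61 and 5.30 CPM in E-cad LO cells. Per kilobase of exon, mean CPM in E-cad LO cells was 1.20 for Art3 and 16.5 for Cxcl10. Whether counting used the strand is not stated. Cxcl9 was higher in the E-cad LO libraries from mice 57, 67 and 70 and lower in those of mouse 58, with 206 counts in E-cad LO cells of mouse 57 and 6 in those of mouse 58.

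A list of 14 genes of the interferon response, all tested, had no common direction. In the fit, 4 of them (Stat2, Irf1, Rsad2 and Mx1) had a log2 fold change above 0 and the others were below 0. The list's median ratio within a mouse was -0.60, 0.00, 0.37 and -0.17. The median log2 fold change of the list was -0.19, and 0 of the 14 passed by edgeR with or without the block or by DESeq2 with or without it. Over all genes, edgeR called 0% higher, and 0.728% with the block. DESeq2 called 2.31% higher and 0.473% lower, and with the block 7.72% and 1.69%. At an unadjusted p under 0.05, 0 were higher, against 8.16% of all genes, and 2 lower, against 5.81%, by edgeR without the block. Of the 14, 0 were higher and 0 lower in all 4 mice, against 16.8% and 14.2% of tested genes. The summed level was 5655, 2887, 2979 and 3517 CPM in E-cad HI cells and 2739, 3035, 3243 and 2656 CPM in E-cad LO cells. The groups overlapped, and E-cad HI cells of mouse 57 stood highest. Irf7, a transcription factor that amplifies type I interferon production and the most abundant gene of the list, had 1141, 801, 750.4 and 822 CPM in E-cad HI cells and 464, 917, 536 and 409 CPM in E-cad LO cells. A part of interferon signaling in the levels of the ligands was not tested.

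Of the remaining CXC ligands, Cxcl16 is made as a transmembrane protein that can be shed and binds Cxcr6. It had 104, 75.2, 68.8 and 90.6 CPM in E-cad HI cells and 307, 142, 194 and 129 CPM in E-cad LO cells. Every E-cad LO library was above every E-cad HI library, with mouse 57 highest in both groups. The log2 fold change was 1.19 ± 0.28, higher in 4 of 4 mice (edgeR adjusted p = 0.253, 9.01e-05 to 0.68). Exons of Cxcl16 overlap those of Zmynd15 on the opposite strand, which had 0.486, 0.996, 1.04 and 1.49 CPM in E-cad HI cells and 6.15, 4.87, 1.88 and 3.21 CPM in E-cad LO cells. Per kilobase of exon, mean CPM in E-cad LO cells was 0.913 for Zmynd15 and 63.9 for Cxcl16.

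Cxcl14, an epithelial chemokine, had 0.278, 4.90, 2.59 and 18.5 CPM in E-cad HI cells and 42.7, 12.1, 11.3 and 61.6 CPM in E-cad LO cells. It was higher in E-cad LO cells of each mouse, but the E-cad HI library of mouse 70 was above the E-cad LO libraries of mice 58 and 67. The log2 fold change was 2.29 ± 1.01 (edgeR adjusted p = 0.355, 0.00983 to 0.686). Cxcl12, which binds Cxcr4 and Ackr3 and is typical of stromal cells, had 0.278, 1.15, 0.667 and 1.66 CPM in E-cad HI cells and 13.0, 2.55, 0.738 and 5.85 CPM in E-cad LO cells. Its groups overlapped through mouse 67, and its log2 fold change was 2.56 ± 0.89, higher in 4 of 4 mice (edgeR adjusted p = 0.302, 0.0818 to 0.699). Without mouse 57, the log2 fold change of Cxcl12 was 1.36, or 1.07 with the block. Cxcl17, a mucosal chemokine, was lower in the E-cad LO libraries from mice 57, 58 and 70 and higher in those of mouse 67. Cxcl13, the B cell chemokine, was not tested and had 395 counts in E-cad LO cells of mouse 67 and at most 37 in any other library.

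Among CC ligands of inflammation, Ccl2, Ccl7, Ccl8 and Ccl12 draw monocytes through Ccr2 or related receptors. Ccl2 had 0.903, 1.23, 0.963 and 7.18 CPM in E-cad HI cells and 45.0, 6.96, 14.0 and 21.9 CPM in E-cad LO cells. It was higher in E-cad LO cells of each mouse, and the groups met where E-cad HI cells of mouse 70 reached just above E-cad LO cells of mouse 58. The log2 fold change was 3.10 ± 0.84 (edgeR adjusted p = 0.268, 1.35e-06 to 0.68). Ccl7 had 0, 0.230, 1.19 and 3.85 CPM in E-cad HI cells and 3.19, 5.22, 4.97 and 7.25 CPM in E-cad LO cells. Its groups overlapped only through E-cad HI cells of mouse 70, and its log2 fold change was 1.97 ± 1.09, higher in 4 of 4 mice (edgeR adjusted p = 0.427, 0.00628 to 0.715). For Ccl7 it was 3.22 by DESeq2 with the block and 3.22 without mouse 70, and in edgeR with the block 3.97 without mouse 70 and 3.46 without mouse 67.

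Ccl12, a mouse ligand of Ccr2, had 0.278, 1.23, 1.26 and 9.28 CPM in E-cad HI cells and 0.296, 2.67, 10.1 and 33.4 CPM in E-cad LO cells. Mouse 70 was highest and mouse 57 lowest in both groups, and the groups overlapped. Between the groups, its log2 fold change was 1.96 ± 1.31, higher in 4 of 4 mice (edgeR adjusted p = 0.488, 0.0178 to 0.754), and 1.21 with the block without mouse 67. Ccl8 had 0, 0.230, 0.296 and 12.4 CPM in E-cad HI cells and 6.15, 0.580, 1.61 and 17.4 CPM in E-cad LO cells. Its level was at or near the floor in E-cad HI cells except those of mouse 70, and the groups overlapped. Between the groups, its log2 fold change was 1.0 ± 1.57, higher in 4 of 4 mice but from 3 and 5 counts in mouse 58 (edgeR adjusted p = 0.764, 0.0617 to 0.937). For Ccl8 it was 2.32 with the block, 2.46 by DESeq2 with the block and 0.57 without mouse 57, and with the block 2.62 without mouse 58 and 2.29 without mouse 67.

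Ccl5, a ligand that draws T cells and monocytes, had 23.8, 2.60, 3.33 and 4.81 CPM in E-cad HI cells and 36.7, 25.5, 35.1 and 26.9 CPM in E-cad LO cells. E-cad HI cells of mouse 57 came close to the E-cad LO libraries without reaching them, while the other E-cad HI libraries were well below. Between the groups, its log2 fold change was 1.84 ± 0.66, higher in 4 of 4 mice (edgeR adjusted p = 0.305, 5.11e-06 to 0.681). Without mouse 57, whose E-cad HI library was the high one, it was 3.01, or 3.02 with the block. Ccl4, an inflammatory ligand made by activated immune cells, had 0.0695, 0.919, 0.222 and 1.84 CPM in E-cad HI cells and 1.19, 3.71, 9.80 and 10.7 CPM in E-cad LO cells. The groups overlapped only where E-cad HI cells of mouse 70 stood above E-cad LO cells of mouse 57. Its log2 fold change was 3.06 ± 1.0, higher in 4 of 4 mice (edgeR adjusted p = 0.298, 0.000182 to 0.68). Ccl3, its neighbor on the chromosome and a ligand of Ccr1, had 0.0695, 0.230, 0.667 and 1.66 CPM in E-cad HI cells and 1.48, 0.232, 2.95 and 4.46 CPM in E-cad LO cells. The groups overlapped, and mouse 58 was at or under the floor in both and gave no direction, with a log2 fold change of 1.81 ± 1.02 and higher values in mice 57, 67 and 70 (edgeR adjusted p = 0.433, 0.147 to 0.728).

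Ccl6 and Ccl9 are rodent ligands of Ccr1. Ccl9 had 4.66, 7.35, 2.89 and 4.81 CPM in E-cad HI cells and 14.1, 11.4, 4.97 and 7.11 CPM in E-cad LO cells. The groups overlapped, and the difference within mice was largest in mouse 57, with a log2 fold change of 0.93 ± 0.44 and a higher value in 4 of 4 mice (edgeR adjusted p = 0.376, 0.111 to 0.751), and 0.61 without mouse 57. Ccl6 had 0.139, 0.306, 0.593 and 4.64 CPM in E-cad HI cells and 1.04, 0.580, 5.57 and 7.94 CPM in E-cad LO cells. E-cad HI cells of mouse 70 were above E-cad LO libraries from mice 57 and 58, so the groups overlapped, and the log2 fold change was 1.43 ± 1.16, higher in 4 of 4 mice (edgeR adjusted p = 0.554, 0.0704 to 0.837). Without mouse 67, the value for Ccl6 was 0.90, and with the block and without mouse 58 it was 2.17. The eosinophil ligands were not tested. Ccl11 had 2 counts in each of 2 libraries, Ccl24 had 28 counts in E-cad LO cells of mouse 57 and at most 2 elsewhere, and Ccl26 had 0 counts in all 8 libraries.

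The CC ligands of lymphoid organs, skin and mucosa include Ccl20, the ligand of Ccr6. Ccl20 had 8.96, 2.15, 0.815 and 4.64 CPM in E-cad HI cells and 16.3, 10.7, 30.5 and 10.3 CPM in E-cad LO cells. Every E-cad LO library was above every E-cad HI library, with the widest gap within mouse 67. Between the groups, its log2 fold change was 2.03 ± 0.69, higher in 4 of 4 mice (edgeR adjusted p = 0.298, 0.00706 to 0.68), and 1.26 without mouse 67. Ccl25, the thymus and gut ligand of Ccr9, had 2.85, 2.53, 3.85 and 5.95 CPM in E-cad HI cells and 13.7, 8.12, 12.8 and 11.4 CPM in E-cad LO cells. Its groups did not overlap, and the log2 fold change was 1.60 ± 0.38, higher in 4 of 4 mice (edgeR adjusted p = 0.253, 0.000663 to 0.68). Exons of Ccl25 overlap those of Elavl1 on the opposite strand, which had 222, 195, 225 and 174 CPM in E-cad HI cells and 194, 203, 177 and 172 CPM in E-cad LO cells. The groups of Elavl1 overlapped, and per kilobase of exon its mean CPM in E-cad HI cells was 19.7, against 0.510 for Ccl25.

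Ccl27a, a ligand of skin and mucosa that has near-identical copies in the mouse genome, had 5.49, 3.68, 4.15 and 6.74 CPM in E-cad HI cells and 9.70, 5.10, 7.65 and 11 CPM in E-cad LO cells. The groups overlapped through mouse 58, and the log2 fold change was 0.74 ± 0.38, higher in 4 of 4 mice (edgeR adjusted p = 0.397, 0.165 to 0.717). How reads of its copies were assigned is not stated, and its exons overlap those of Il11ra1 on the opposite strand, which had a log2 fold change of -0.67 ± 0.37 (edgeR adjusted p = 0.426, 0.125 to 0.746). Ccl28, a mucosal ligand, was lower in the E-cad LO libraries from mice 57, 58 and 67 and higher in those of mouse 70. Ccl17 and Ccl22, the ligands of Ccr4, were not tested and had at most 20 and 15 counts in a library. Ccl1 had 35 counts in E-cad HI cells of mouse 58 and at most 1 elsewhere.

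Cx3cl1, the membrane-bound ligand of Cx3cr1, had no common direction. It had 118, 135, 150.4 and 97.3 CPM in E-cad HI cells and 118, 199, 105 and 71.1 CPM in E-cad LO cells. The groups overlapped fully, with higher values in E-cad LO cells of mouse 58, lower values in those of mice 67 and 70, and a log2 ratio of 0.00 in mouse 57. On average this was a log2 fold change of -0.02 ± 0.29 (edgeR adjusted p = 0.976, 0.428 to 0.998), and it was above 0 without mouse 67 (0.17), without mouse 70 (0.07) and with DESeq2 (0.00). Xcl1, made by NK and T cells, was not tested and had 27 and 6 counts in E-cad LO libraries from mice 67 and 70 and 0 in the other libraries.

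**Figure D2:**
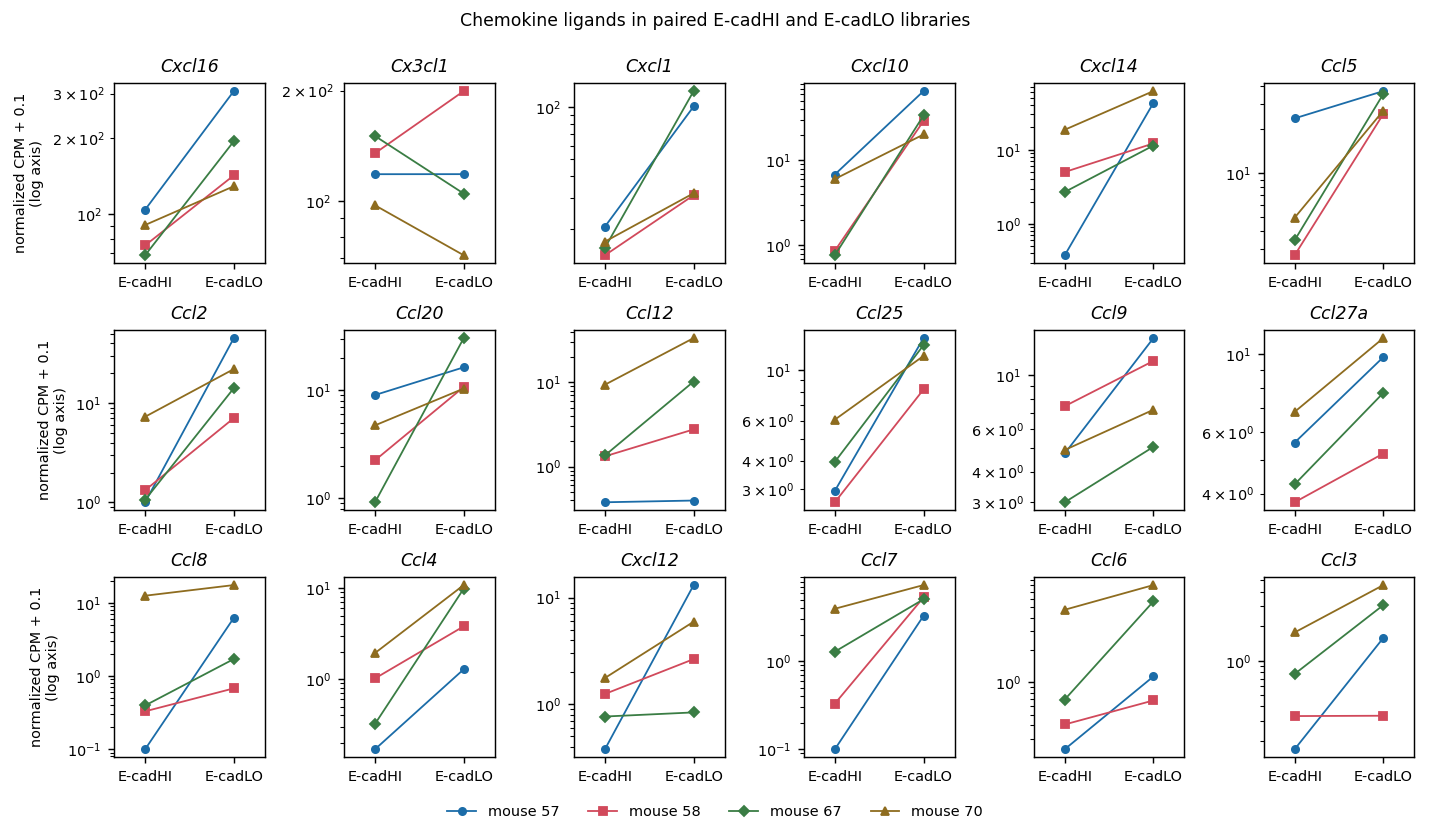
Normalized CPM plus 0.1 (y axis, log scale that differs between panels) of the 18 ligands described library by library in both populations (x axis), with a line joining the populations of each mouse. Lines go up in all 4 mice for 17 of the ligands, nearly level for Ccl12 in mouse 57, Ccl3 in mouse 58 and Cxcl12 in mouse 67, and Cx3cl1 has no common direction.

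Levels of different ligands were compared per kilobase of exon. On the scale of CPM per kilobase, mean levels in E-cad HI cells were 31.9 ± 5.79 for Cx3cl1 and 28.0 ± 5.26 for Cxcl16 (SD, n = 4), which did not differ beyond their spread. Ccl5, at 8.99 ± 10.6, and Cxcl1, at 8.91 ± 1.48, came next and did not differ beyond their spread either. The mean of Ccl5 rested on mouse 57, at 23.8 CPM, with 2.60, 3.33 and 4.81 CPM in mice 58, 67 and 70. These spreads are across mice, and the order of ligands within a mouse was not compared. In E-cad LO cells the order on the same scale was Cxcl16 at 63.9 ± 26.8, Cxcl1 at 38.2 ± 25.2, Ccl5 at 32.4 ± 5.91 and Cx3cl1 at 31.4 ± 13.8. Cxcl16 and Cxcl1 differed by less than the SD of Cxcl16 there, and Cxcl1, Ccl5 and Cx3cl1 by less than the SD of Cxcl1.

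Many of the ligands sit in clusters on the genome (GRCm38). On chromosome 11, Ccl2, Ccl7, Ccl11, Ccl12, Ccl8 and Ccl1 lie between 82035571 and 82305690. The 4 that were tested were higher in E-cad LO cells of all 4 mice, against 16.8% of all tested genes. Ccl5, Ccl9, Ccl6, Ccl3 and Ccl4 lie between 83525778 and 83664683 on the same chromosome. All 5 were tested and higher in all 4 mice, apart from Ccl3 in mouse 58, against the same share of 16.8%. On chromosome 5, Cxcl5, Cxcl3, Cxcl15, Cxcl1 and Cxcl2 lie between 90759360 and 90905938, and within this stretch Cxcl1 and Cxcl2 were higher in all 4 mice while Cxcl5 was lower in all 4. Cxcl9 and Cxcl10, both tested, lie between 92321347 and 92348889 on chromosome 5, and of these Cxcl10 alone was higher in all 4 mice. On chromosome 8, Ccl22, Cx3cl1 and Ccl17 lie between 94745590 and 94812036, and none of them was higher in all 4 mice.

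Promoters are shown for ligands that were higher in E-cad LO cells of all 4 mice and hold the κB consensus of NF-κB, and for their neighbor Cxcl3. In RefSeq sequence of build GRCm38.p6, 23 of the 33 ligands had a promoter. The κB consensus was searched on both strands in the 250 bases before each gene start and was found in 7.25% of all 32851 promoters. It was found for 7 of the 23 ligands, namely Ccl1, Ccl9, Ccl20, Cxcl1, Cxcl2, Cxcl3 and Cxcl10. Of the 12 tested ligands higher in all 4 mice that had a promoter, 4 held it, and of the 11 other ligands 3 did. The 12 include Ccl3, which held no match and has no usable direction in mouse 58. The 11 include Cxcl2, which held a match and was higher in all 4 mice but was not tested. No promoter was listed for Ccl2, Ccl4, Ccl5, Ccl7, Ccl11, Ccl24, Ccl26, Cxcl5, Cxcl16 and Cxcl17. The windows are chr5:90890995-90891244 (plus strand) for Cxcl1, chr5:90903649-90903898 (plus) for Cxcl2, chr5:90785851-90786100 (plus) for Cxcl3, chr5:92348890-92349139 (minus) for Cxcl10, chr11:83578637-83578886 (minus) for Ccl9 and chr1:83116516-83116765 (plus) for Ccl20. Each is written 5′ to 3′ on the strand of its gene with the match in capitals, where overlapping matches form 1 stretch. A match describes these letters and was not tested as a site.
Cxcl1: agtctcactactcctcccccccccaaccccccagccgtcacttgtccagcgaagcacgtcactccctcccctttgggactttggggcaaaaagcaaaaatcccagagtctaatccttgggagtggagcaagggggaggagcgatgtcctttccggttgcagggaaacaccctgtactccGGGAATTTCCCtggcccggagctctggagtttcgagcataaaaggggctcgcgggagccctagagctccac
Cxcl2: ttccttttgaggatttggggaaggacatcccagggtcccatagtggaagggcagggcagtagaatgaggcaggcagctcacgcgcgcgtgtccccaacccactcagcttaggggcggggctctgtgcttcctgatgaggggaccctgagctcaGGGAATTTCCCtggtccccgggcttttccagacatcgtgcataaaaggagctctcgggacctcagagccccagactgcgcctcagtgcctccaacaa
Cxcl3: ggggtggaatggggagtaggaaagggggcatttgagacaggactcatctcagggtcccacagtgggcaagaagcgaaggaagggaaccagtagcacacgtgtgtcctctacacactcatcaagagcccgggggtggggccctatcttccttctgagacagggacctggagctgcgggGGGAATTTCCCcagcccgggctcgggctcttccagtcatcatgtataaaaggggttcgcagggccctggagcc
Cxcl10: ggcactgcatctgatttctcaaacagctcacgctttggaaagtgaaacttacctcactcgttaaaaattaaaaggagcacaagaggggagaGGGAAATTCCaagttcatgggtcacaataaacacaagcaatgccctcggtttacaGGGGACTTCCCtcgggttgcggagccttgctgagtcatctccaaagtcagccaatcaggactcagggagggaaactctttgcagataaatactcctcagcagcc
Ccl9: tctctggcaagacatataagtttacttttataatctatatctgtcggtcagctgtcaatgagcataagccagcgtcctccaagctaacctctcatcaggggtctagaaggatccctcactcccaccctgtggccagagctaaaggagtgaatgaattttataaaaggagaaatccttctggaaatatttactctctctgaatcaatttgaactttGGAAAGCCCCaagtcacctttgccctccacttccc
Ccl20: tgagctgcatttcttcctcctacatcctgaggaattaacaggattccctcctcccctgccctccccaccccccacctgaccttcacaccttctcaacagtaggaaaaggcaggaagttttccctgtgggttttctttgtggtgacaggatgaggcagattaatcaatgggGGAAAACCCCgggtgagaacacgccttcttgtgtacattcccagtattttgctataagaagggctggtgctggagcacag
The same 11 letters stand in capitals in Cxcl1, Cxcl2 and Cxcl3, beginning 71, 97 and 73 bases before the gene start. Cxcl1 and Cxcl2 had counts in every library, and Cxcl3 had 1 count in 1 library. Cxcl10 holds 2 stretches, beginning 159 and 104 bases before its start.

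A list of 16 inducers and targets of NF-κB was described beside the ligands, and 14 of them were tested, of which 2 passed the level of the filter in all E-cad LO but not all E-cad HI libraries. Their median log2 fold change was 1.20, and 0 passed by edgeR with or without the block, while 7 had an unadjusted p under 0.05 and higher values without the block, against 8.16% of all genes. DESeq2 called 6 of the 13 with an adjusted p higher without the block, against 2.31%, and 6 of 14 with it, against 7.72%. The summed level was 345, 295, 280.0 and 327 CPM in E-cad HI cells and 1179.9, 469, 705 and 440.1 CPM in E-cad LO cells. All E-cad LO libraries were above all E-cad HI libraries, with mice 57 and 67 highest, as for the sum of the ligands. For 6 of the 14, Nfkbia, Nfkb2, Relb, Tnfaip3, Tnf and Icam1, the groups did not overlap, against 3.9% of tested genes. Nfkbia, the inhibitor that NF-κB itself induces and the most abundant gene of the list, had 181, 112, 128 and 146 CPM in E-cad HI cells and 414, 185, 359 and 201 CPM in E-cad LO cells. Its log2 fold change was 1.03 ± 0.29, higher in 4 of 4 mice (edgeR adjusted p = 0.269, 0.000462 to 0.68). A part of NF-κB in the levels of the ligands was not tested.

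The receptors of these ligands were scarce. Of 19 listed receptors, 8 were tested, with a median log2 fold change of 0.93 (1.44 with the block) against 0.06 for all tested genes. Of these 8, 4 passed the level of the filter in all E-cad LO but not all E-cad HI libraries, against 804 of all 13598 tested genes. The summed level of the 19 was 8.83, 14.9, 19.7 and 29.7 CPM in E-cad HI cells and 10.7, 36.9, 62.6 and 62.0 CPM in E-cad LO cells. The sum was higher in E-cad LO cells of each mouse, and the groups overlapped through mouse 57. By edgeR without the block 0 of 8 passed, with 1 at an unadjusted p under 0.05, against 8.16% of all genes, and with the block 1 passed, Cx3cr1, against 0.728%. DESeq2 gave an adjusted p to 5 of them and called 1 higher, against 2.31%, and with the block to 7 and called 3 (Ccr1, Ccr2 and Cx3cr1), against 7.72%.

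Cx3cr1, the receptor of Cx3cl1 and a marker of microglia, had 0.625, 3.60, 3.11 and 4.03 CPM in E-cad HI cells and 3.85, 15.5, 22.8 and 30.2 CPM in E-cad LO cells. It was higher in E-cad LO cells of each mouse, and the groups overlapped only where E-cad LO cells of mouse 57 fell below E-cad HI cells of mouse 70. On average this was a log2 fold change of 2.67 ± 0.70 (edgeR adjusted p = 0.262, 1.17e-11 to 0.68), and with the block it was 2.63 ± 0.31 (edgeR adjusted p = 0.0239). The number of receptors called with the block was 0 without mouse 67 and 0 without mouse 70. Ccr1, a receptor of Ccl3, Ccl5, Ccl6 and Ccl9, had 0, 0.460, 3.63 and 7.35 CPM in E-cad HI cells and 1.78, 4.29, 11.6 and 11.8 CPM in E-cad LO cells. Cxcr4, the receptor of Cxcl12, had 6.25, 4.98, 6.89 and 6.83 CPM in E-cad HI cells and 1.48, 3.48, 7.32 and 4.11 CPM in E-cad LO cells, lower in mice 57, 58 and 70. Cxcr2, the receptor of the neutrophil-drawing ligands, had at most 2.37 CPM in a library, and Cxcr3, the receptor of Cxcl9 and Cxcl10, at most 1.11. Cxcr5, the receptor of Cxcl13, had lower values with E-cad LO status in all 4 mice, and all its E-cad LO libraries were below its E-cad HI libraries, with a log2 fold change of -0.69 ± 0.46 (edgeR adjusted p = 0.491, 0.491 to 0.802).

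Atypical receptors bind chemokines without the usual signaling. Of 5 listed, 3 were tested, with a median log2 fold change of 0.11 (0.04 with the block), and 0 passed by edgeR or DESeq2 with or without the block, where DESeq2 without it gave 2 of them an adjusted p. By edgeR without the block 0 had an unadjusted p under 0.05, against 8.16% of all genes. Ccrl2, the most abundant, had 70.1, 34.8, 27.8 and 39.0 CPM in E-cad HI cells and 28.7, 37.0, 38.3 and 41.3 CPM in E-cad LO cells. Its groups overlapped, and mouse 57 differed in direction from the other mice. The summed level of the 5 was 83.3, 49.5, 43.2 and 57.6 CPM in E-cad HI cells and 41.0, 48.1, 63.6 and 60.8 CPM in E-cad LO cells.

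Markers of cells that make or answer chemokines were read in the same libraries, and the gene that leads each list is the highest by mean CPM. Of 20 genes of microglia and macrophages, all were tested, 18 were higher in E-cad LO cells of all 4 mice, against 16.8% of tested genes, and the median log2 fold change was 2.07. Of the 20, 9 passed the level of the filter in all E-cad LO but not all E-cad HI libraries, against 804 of all 13598 tested genes. The direction of these 9 is bound up with being tested. By edgeR 0 passed without the block, with 9 at an unadjusted p under 0.05, against 8.16% of all genes, and 6 passed with the block, against 0.728%. DESeq2 called 6 without the block, against 2.31%, and 17 with it, against 7.72%. Their summed level was 46.1, 145, 204 and 557 CPM in E-cad HI cells and 339.9, 361, 1369 and 1787 CPM in E-cad LO cells. Mouse 70 was highest in both groups, and E-cad HI cells of mouse 70 were above E-cad LO libraries from mice 57 and 58. Ctss, a lysosomal protease and the most abundant gene, had 6.81, 37.2, 58.8 and 168 CPM in E-cad HI cells and 19.1, 90.8, 394 and 509.7 CPM in E-cad LO cells. None of the 20 was at 0 in all libraries, and P2ry12, a defining marker of microglia, had 2.29, 2.53, 3.56 and 8.40 CPM in E-cad HI cells and 5.04, 11.2, 25.6 and 40.8 CPM in E-cad LO cells. Among E-cad HI libraries, 13 of the 21 tested ligands were, like the sum of these markers, highest in mouse 70 (Cxcl9, Cxcl12, Cxcl14, Cxcl17, Ccl2, Ccl3, Ccl4, Ccl6, Ccl7, Ccl8, Ccl12, Ccl25 and Ccl27a), against 29.3% of all tested genes. Of the other 8, 6 were highest in mouse 57 (Cxcl1, Cxcl10, Cxcl16, Ccl5, Ccl20 and Ccl28), against 25.4%, Ccl9 in mouse 58 and Cx3cl1 in mouse 67. The part of microglia and macrophages in the ligand levels was not tested. This list also holds Cx3cr1.

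The other brain lists also had positive medians. In E-cad LO cells of all 4 mice, 6 of 10 astrocyte genes and 7 of 10 genes of oligodendrocytes and neurons were higher, against 16.8% of tested genes. Of 10 astrocyte genes, all tested, 3 passed by edgeR with the block (Gfap, Slc1a3 and S100b), against 0.728% of all genes, and 0 without it, and 1 had an unadjusted p under 0.05, against 8.16%. DESeq2 called 1 of the 9 with an adjusted p, against 2.31%, and 7 of 10 with the block, against 7.72%, and the median log2 fold change was 1.68. Their summed level was 1144, 1162, 1312 and 3655 CPM in E-cad HI cells and 725, 1484, 2005 and 10204 CPM in E-cad LO cells, led by Aldoc, an enzyme of sugar metabolism. In mouse 57 the astrocyte sum was lower in E-cad LO than in E-cad HI cells, and in the other mice it was higher. Without Aldoc, left out after its values were seen, it was 142, 475, 289 and 1429 CPM in E-cad HI cells and 602, 786, 877 and 5316 CPM in E-cad LO cells, higher in all 4 mice. Of 10 genes of oligodendrocytes and neurons, all tested, 2 passed by edgeR with the block (Mbp and Snap25), against 0.728% of all genes, and 0 without it, and 1 had an unadjusted p under 0.05, against 8.16%. DESeq2 called 0 of the 8 with an adjusted p, against 2.31%, and 8 of 10 with the block, against 7.72%, and the median was 1.99. Of these 10, 6 passed the level of the filter in all E-cad LO but not all E-cad HI libraries, as did 1 of the astrocyte genes. Their summed level was 488, 1252, 734 and 5956 CPM in E-cad HI cells and 976, 2847, 2706 and 22824 CPM in E-cad LO cells, led by Mbp, a protein of myelin. Mouse 70 stood far above the others in both groups. The sum of the 33 ligands was 305, 263, 262 and 306 CPM in E-cad HI cells, nearly level between mice 57 and 70, and 821, 503, 646 and 499.7 CPM in E-cad LO cells, nearly level between mice 58 and 70. In E-cad HI cells of mice 57 and 70, Cx3cl1 gave 118 and 97.3 CPM of this sum and Cxcl16 gave 104 and 90.6 CPM. Single ligands were not level, and 13 of the 21 tested were highest in mouse 70 among E-cad HI libraries.

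Of 10 endothelial genes, 9 were tested, 0 passed by edgeR with or without the block, 1 had an unadjusted p under 0.05, against 8.16% of all genes, DESeq2 called 0 of the 8 with an adjusted p and, with the block, 1 of 9, against 7.72%, and the median log2 fold change was 1.27. Their sum was 42.5, 43.8, 78.3 and 75.0 CPM in E-cad HI cells and 64.4, 79.7, 100.4 and 115 CPM in E-cad LO cells, led by Flt1, a receptor of VEGF. The groups overlapped, and Cdh5, a defining marker, was not tested, with at most 0.697 CPM outside E-cad LO cells of mouse 57, where it had 5.78. Of the 9 tested endothelial genes, 4 were higher in E-cad LO cells of all 4 mice, against 16.8% of tested genes. Of 10 fibroblast genes, 8 were tested, 0 passed by edgeR with or without the block, 6 had an unadjusted p under 0.05, against 8.16% of all genes, DESeq2 with the block called 2, against 7.72%, and 3 passed the level of the filter in all E-cad LO but not all E-cad HI libraries. Without the block DESeq2 gave an adjusted p to 3 of the 8 alone, and not to the collagen genes, so its calls say nothing of those. Of the 8 tested fibroblast genes, 4 were higher in E-cad LO cells of all 4 mice, against 16.8% of tested genes. The median log2 fold change was 5.62, but 2.75 with the block and 2.27 by DESeq2 with the block, and the median ratio within a mouse was 6.78, 0.79, 1.49 and 0.92. Their sum was 8.34, 11.5, 8.0 and 25.6 CPM in E-cad HI cells and 1654, 27.5, 37.5 and 51.5 CPM in E-cad LO cells, led by the collagen gene Col1a1. E-cad LO cells of mouse 57 stood apart from all other libraries here, and 8 of the 21 tested ligands (Cxcl9, Cxcl10, Cxcl12, Cxcl16, Ccl2, Ccl5, Ccl9 and Ccl25) were highest in that library, against 21.5% of all tested genes. Another 8 were highest in E-cad LO cells of mouse 70, against 19.1%, 3 in those of mouse 67, 1 in those of mouse 58 and 1 in E-cad HI cells of mouse 57.

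None of 10 genes of T and NK cells was tested, and their sum was 0.0695, 1.84, 0.222 and 2.1 CPM in E-cad HI cells and 0.222, 1.28, 3.22 and 19 CPM in E-cad LO cells, led by Nkg7. The T cell marker Cd3e had at most 0.470 CPM in a library. The sum was highest in E-cad LO cells of mouse 70. Ccl5, a ligand that T cells can make, had 26.9 CPM in that library, and 36.7, 25.5 and 35.1 CPM in the E-cad LO libraries from mice 57, 58 and 67. Of 10 neutrophil genes, 3 were tested, 0 passed by edgeR with or without the block, 2 were lower at an unadjusted p under 0.05, against 5.81% of all genes, DESeq2 called 0 and, with the block, 1 lower, against 1.69%, and the median log2 fold change was -1.03. The tested gene Csf3r, named after its values were seen, went the other way on average, with a log2 fold change of 2.09 ± 1.27 (edgeR adjusted p = 0.458, 0.234 to 0.916), and without Ltf the median of the other 2 was 0.53. The list was led by Ltf, which mammary epithelium also makes, with a sum of 19309, 12813, 17116 and 15498 CPM in E-cad HI cells and 2626, 12565, 7467 and 7028 CPM in E-cad LO cells. Without Ltf, the sum was 24.0, 25.4, 16.3 and 19.3 CPM in E-cad HI cells and 9.04, 10.3, 17.9 and 24.5 CPM in E-cad LO cells, led by S100a8. The neutrophil marker S100a9 was at 0 in 6 libraries.

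Of 13 genes of tumor epithelium, 12 were tested, and 0 passed by edgeR or DESeq2 with or without the block. Over all genes, edgeR called 0% higher, and 0.728% with the block. DESeq2 called 2.31% higher and 0.473% lower, and with the block 7.72% and 1.69%. At an unadjusted p under 0.05, 1 was lower, against 5.81% of all genes, and the median log2 fold change was -0.17. In all 4 mice, 1 of the 12, Elf3, was higher, against 16.8% of tested genes, and 2, Epcam and Grhl2, were lower, against 14.2%. The groups of Epcam did not overlap, which in this direction held for 571 of all 13598 tested genes. The sum of the list was 10439.9, 7676, 10307 and 9167 CPM in E-cad HI cells and 5712, 9347, 14288 and 8069 CPM in E-cad LO cells, led by the keratin gene Krt18. The groups overlapped, and Krt5 was the list's gene with 0 counts in some libraries. The parts of astrocytes, oligodendrocytes, neurons, endothelium, fibroblasts, T and NK cells, neutrophils and tumor epithelium in the ligand levels were not tested.

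**Figure D3:**
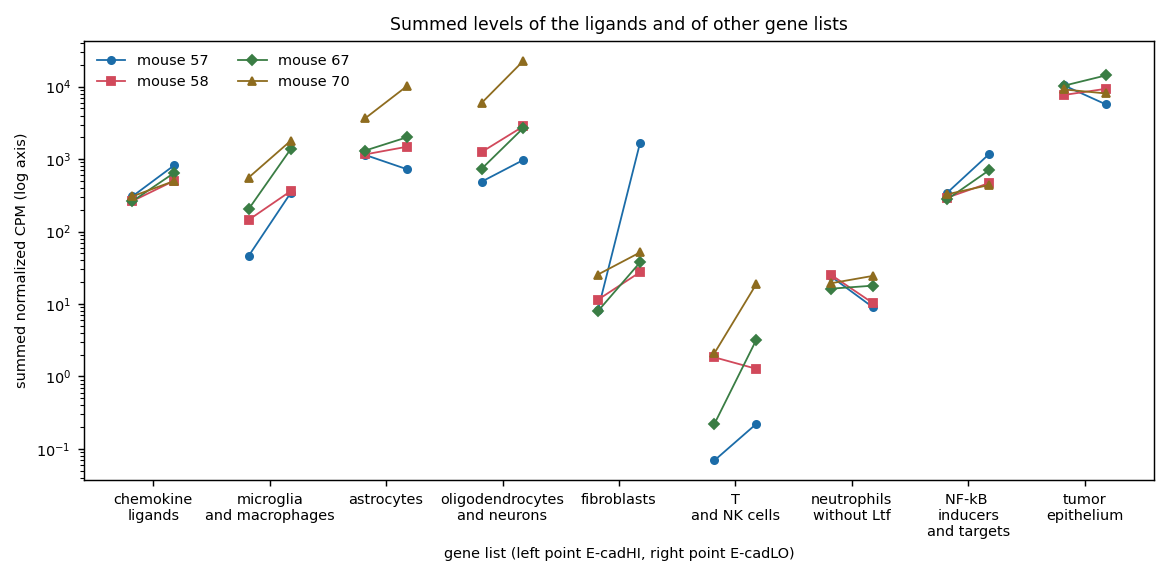
Summed normalized CPM (y axis, log scale) of the 33 chemokine ligands and of other gene lists (x axis), with the left point of each pair for E-cad HI cells, the right point for E-cad LO cells and a line for each mouse. Lines go up in all 4 mice for the ligands, NF-κB genes, microglia and macrophages, oligodendrocytes and neurons, and fibroblasts. Astrocytes go down in mouse 57 and up in the other mice. Tumor epithelium goes down in mice 57 and 70 and up in mice 58 and 67.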

How the data were processed

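Counts were used as deposited: the authors gave whole-number read counts per gene for 8 bulk libraries, without normalization. The submitters' processing notes name HISAT2 2.1.0, HTSeq and build GRCm38, and the methods of the paper name Icount for counting. The strand setting was not stated. The 365 entries without an identifier, 0.0636% to 0.0954% of counts, were left out. The whole table was fitted with edgeR 4.0.16 (R 4.3.3, limma 3.58.1), TMM scaling, filterByExpr by group, the quasi-likelihood test and Benjamini-Hochberg adjustment over 13598 genes with a threshold of 0.05. Ratios within a mouse used CPM plus 0.5. The members and lists were chosen with earlier results of these data known. Ligands were described library by library where they passed the filter and had a common direction in all 4 mice, were among the 8 with the highest mean CPM, or passed the threshold with or without the block. Of each other list at most 4 abundant genes and those passing with the block were eligible, and a gene outside this rule, such as Cxcl2, Cxcl5, Cxcl13, Art3 or a defining marker, was named after its values were seen. Alternatives were the mouse as a replicate block, DESeq2 1.42.0 with and without it, DESeq2 size factors, no filter, at least 10 counts in every library, a robust fit, pseudocounts of 0.1 and 2 CPM and each mouse left out. Exon overlaps came from GENCODE M21, in which all 33 ligands were found by identifier. After the group means were removed, libraries of a mouse correlated across genes at 0.248 to 0.692 and those of different mice at most at 0.144. Python 3.11.15, pandas 2.3.3, scipy 1.17.1 and matplotlib 3.10.9 made tables and figures.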

Additional observations from a re-analysis of the deposited data

Results flagged for a closer look

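In 6 of 56 groups of 4 values, a value stood far from the other 3. For independent, normally distributed values, chance alone marks about 1 in 20 groups, or 2.8 of 56. Most flagged values were CPM without a log, and E-cad HI cells of mouse 70 recur among them, so this rate need not hold here. Within mice, the log2 ratio of Cxcl14 was 5.79 in mouse 57, far above the other mice. Among E-cad HI libraries, Ccl5 was far above the rest in mouse 57, at 23.8 CPM. In E-cad HI cells of mouse 70, Ccl2 at 7.18 CPM, Ccl12 at 9.28 CPM, Ccl8 at 12.4 CPM and Ccl6 at 4.64 CPM were each far above the other mice. Genes of microglia and macrophages were also highest in that library among E-cad HI libraries, with a sum of 557 CPM against at most 204 CPM in the other mice. So were genes of astrocytes (3655 against at most 1312 CPM), of oligodendrocytes and neurons (5956 against at most 1252 CPM), of fibroblasts (25.6 against at most 11.5 CPM) and of T and NK cells (2.1 against at most 1.84 CPM). The sum of the listed receptors was also highest in that library (29.7 against at most 19.7 CPM). The other lists of cell types were not: endothelium was highest in mouse 67 (78.3 against 75.0 CPM in mouse 70), and neutrophils (19309 against 15498 CPM) and tumor epithelium (10439.9 against 9167 CPM) in mouse 57. The part of these cells in these values was not tested.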

How the results depend on the processing

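The number of ligands called was 0 in edgeR and 0 with the replicate block, DESeq2 size factors, no filter, at least 10 counts in every library and the robust fit, 6 with DESeq2 and 10 with DESeq2 and the block, and from 0 to 8 with a mouse left out, the 8 being without mouse 57 with the block. For receptors it was 0 in edgeR, 1 with the block, 1 with DESeq2 and 3 with DESeq2 and the block, and from 0 to 1 with a mouse left out. Over all genes, the number higher was 0 in edgeR, 99 with the block, 298 with DESeq2, 1030 with DESeq2 and the block and 23 without the filter, and from 0 to 425 with a mouse left out. The median log2 fold change of the tested ligands, 1.84, ranged from 1.66 to 1.96 over the other settings and from 1.45 to 2.27 with a mouse left out, the highest without mouse 70. The count of ligands higher in all 4 mice, 17, was 8 of 9 with at least 10 counts in every library, where fewer ligands remained, 16 with a library above the floor in each mouse and 12 with every library above it (both added after seeing the data), and 17 or 18 otherwise, from 17 to 18 with a mouse left out. For Cx3cl1, the value of -0.02 turned to 0.0017 with DESeq2 and with DESeq2 size factors, 0.036 with at least 10 counts in every library, 0.17 without mouse 67, 0.07 without mouse 70, and with the block 0.05 without mouse 67 and 0.03 without mouse 70, and it ranged from -0.31 to 0.17 with a mouse left out. For the described ligands, 224 other values kept their sign and side of the threshold, and 24 kept their sign and newly passed it. In edgeR with all 4 mice, the block changed no call of a ligand. The cause was not tested. With 9102781 to 15769200 counts per library, a ligand at or under the floor of 3 counts in a library has an inexact ratio in that mouse. Among tested ligands this holds in E-cad HI cells for Ccl3, Ccl4, Ccl6, Ccl7 and Ccl8 in mouse 57, Ccl3, Ccl7 and Ccl8 in mouse 58 and Ccl4 and Cxcl9 in mouse 67. In E-cad LO cells it holds for Ccl3 and Ccl28 in mouse 58, Ccl28 in mouse 67 and Cxcl17 in mouse 70. Only Ccl3 in mouse 58 was so in both libraries, which leaves no direction there, and 12 ligands passed the level of the filter in too few libraries to be tested.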

Other observations

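Cxcl11, another interferon-induced ligand of Cxcr3, is annotated as a polymorphic pseudogene and so was not among the protein-coding ligands. It had 0.903, 0.153, 0.519 and 1.23 CPM in E-cad HI libraries from mice 57, 58, 67 and 70 and 3.70, 1.16, 2.42 and 4.11 CPM in E-cad LO cells. It was higher in E-cad LO cells of each mouse, and the groups overlapped through mouse 58. On average this was a log2 fold change of 2.02 ± 0.70 (edgeR adjusted p = 0.301, 0.0201 to 0.68 over the alternative fits). Exons of Cxcl11 overlap those of Gm2673 on the opposite strand, and whether counting used the strand is not stated. Of the platelet chemokines Pf4 and Ppbp, which carry other symbols, Pf4 was tested and had 0.139, 0, 0.222 and 0.350 CPM in E-cad HI cells and 1.48, 1.39, 0.805 and 1.95 CPM in E-cad LO cells. It passed the level of the filter in all 4 E-cad LO and in 0 E-cad HI libraries, where it had 2, 0, 3 and 4 counts, so its direction is bound up with being tested and no fold change is given. Cxcl11 likewise passed that level in all 4 E-cad LO and in 2 E-cad HI libraries. Ccl19, Ccl21a to Ccl21d and Ccl27b were not found in the table by symbol and were not analysed here.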
